A study of Mus musculus with 21 samples.

Results

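Polycomb group genes encode the subunits of Polycomb repressive complexes 1 and 2 (PRC1 and PRC2) and their associated proteins. The list held 35 genes, taken by their known membership of these complexes. Of these, 34 had a probe set annotated to that gene alone, among 18194 genes measured in this way. Where a gene had several probe sets, the brightest on average across the 21 arrays stood for it, and the members had 91 probe sets in all. Rybp, which stimulates the ubiquitin ligase of variant PRC1 complexes, had no probe set of its own and was not measured.

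The arrays were made from C57/BL6 mouse bone marrow cells that were sorted by surface markers, and their groups differ in Dot1l, a histone methyltransferase of active genes. Dot1l-deleted LSK cells (6 arrays) and Dot1l-deleted granulocyte-macrophage progenitors, GMP (4 arrays), came from Dot1l fl/fl x Mx-Cre mice, and control LSK cells (6 arrays) and control GMP (5 arrays) from mice with Mx-Cre and 2 wild-type alleles (Dot1 wt/wt). LSK cells are lineage-negative, Sca-1-positive and Kit-positive, and hold the stem cells and multipotent progenitors, while GMP are committed to granulocytes and monocytes. All groups carried Mx-Cre, a recombinase gene that interferon switches on in many tissues, and per the series text the mice were given pIpC, which induces interferon. This promoter is therefore not limited to blood cells. No label states that the arrays came from separate mice, so that p-values measure only the spread between these samples. The time from pIpC to sorting is not stated in the labels.

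PRC2 methylates histone H3 at repressed genes, and its enzymes Ezh1 and Ezh2 work only together with Eed and Suz12. PRC1 attaches ubiquitin to histone H2A through its ligases Ring1 and Rnf2, each paired with 1 of the Pcgf proteins. Canonical PRC1 also holds a Cbx protein, which reads the PRC2 mark, and a Phc protein, while variant PRC1 carries other subunits such as Kdm2b in their place. In blood, Bmi1 is known for the self-renewal of stem cells, and the loss of Ezh2, Suz12 or Asxl1 is known from myeloid disease in humans.

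The promoters of 3 members are printed because the results below turn on Suz12 and Phc3, and because Ezh2, the main PRC2 enzyme of dividing cells, is the member usually described beside them. Each stretch runs from 250 bases before to 50 bases after the start of the gene, 5′ to 3′ on the strand of the gene, as given by RefSeq for GRCm38.p6. Capitals mark the letters of the motifs searched on both strands, which were TTTGGCGC or TTTCCCGC for E2F, CCAAT for NF-Y, CGGAAG for ETS factors, GAGGAAGT for PU.1 and AAGATGGCG for YY1.
Suz12, chr11:79992856-79993155, plus strand: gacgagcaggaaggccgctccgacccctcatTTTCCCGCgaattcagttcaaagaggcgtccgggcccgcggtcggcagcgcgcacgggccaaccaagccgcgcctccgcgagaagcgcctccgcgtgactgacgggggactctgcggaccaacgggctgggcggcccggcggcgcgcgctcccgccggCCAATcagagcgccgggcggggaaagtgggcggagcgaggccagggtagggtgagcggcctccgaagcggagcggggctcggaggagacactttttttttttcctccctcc
Ezh2, chr6:47594981-47595280, minus strand: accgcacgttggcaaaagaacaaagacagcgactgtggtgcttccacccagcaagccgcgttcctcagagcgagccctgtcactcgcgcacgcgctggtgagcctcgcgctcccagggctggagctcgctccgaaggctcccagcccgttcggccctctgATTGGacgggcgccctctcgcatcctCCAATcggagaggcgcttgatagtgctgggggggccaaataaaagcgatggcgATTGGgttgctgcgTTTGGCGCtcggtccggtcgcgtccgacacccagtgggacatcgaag
Phc3, chr3:30969366-30969665, minus strand: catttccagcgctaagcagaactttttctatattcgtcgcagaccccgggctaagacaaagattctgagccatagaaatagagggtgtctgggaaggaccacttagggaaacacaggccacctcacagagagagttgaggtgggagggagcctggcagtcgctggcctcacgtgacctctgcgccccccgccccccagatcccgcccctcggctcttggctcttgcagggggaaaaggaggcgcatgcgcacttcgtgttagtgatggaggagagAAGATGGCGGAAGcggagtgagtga
The Suz12 stretch held the E2F letters once and CCAAT once, and the Ezh2 stretch held the E2F letters once and CCAAT, on either strand, 3 times. The Phc3 stretch held the YY1 letters once, overlapping the ETS letters CGGAAG. CpG pairs numbered 41 in Suz12, 31 in Ezh2 and 15 in Phc3.

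RefSeq promoters were at hand for 31 of the 34 members, with Cbx2, Pcgf1 and Yaf2 missing from the table. The E2F letters occurred in 3 of these 31 genes (Ezh2, Suz12 and Phf19), or 9.68%, against 1.80% of 27025 genes and 1.56% of all promoters in the table. The ETS letters occurred in 8 (25.8%, against 18.8% of all genes), CCAAT in 14 (45.2%, against 41.1%), the YY1 letters in 2 (6.45%, against 1.64%) and the PU.1 letters in 0 (against 3.69%). The median promoter of the members had 23.5 CpG pairs and 64.3% G and C, against 7 CpG pairs and 52.7% over all promoters. These counts describe letters within 300 bases and say nothing of binding.

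Before the results, some of the arrays need description. Array K1272 of the Dot1l-deleted LSK group was unlike the rest of that group (Spearman correlation 0.684 on average), and its log2 intensities of Kit and Cd34 were 4.9999 and 5.20, against 8.57 to 9.93 and 9.98 to 10.48 on control LSK arrays. It was the lowest of its group for 18 of the 34 members (52.9%, against 28.1% of all genes). The Dot1l-deleted LSK array K1359 was close to controls in the stem cell gene Hlf, at 10.90 against 10.77 to 11.52. Flt3 and Hoxa9 were both 10.02 on this array, against 9.52 to 10.57 and 9.37 to 10.48 on control LSK arrays. The Dot1l-deleted GMP arrays K1190 and K1272 were a close pair, with a Spearman correlation of 0.982. They correlated more with LSK arrays (0.903 and 0.893) than with GMP arrays (0.874 and 0.857), although their Mpo levels of 13.77 and 14.01 were close to those of control GMP, 13.50 to 13.999. The upper quartile of their log2 intensities was 6.71 and 6.77, against 6.27 and 6.31 on the deleted GMP arrays K1359 and K1421. It was 6.19 to 6.57 on control GMP arrays and 6.60 to 6.76 on control LSK arrays. The part of array scale in this likeness was not tested. Among controls, GMP array K1603 had a mean Spearman correlation of 0.811 with its group. Its Cd34 was 6.30, against 7.90 to 9.40 on the other control GMP arrays. K1603 was the lowest of its group for 13 of the 34 members (38.2%, against 21.1% of all genes).

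The markers of the sorted cells, and of cells outside the gates, were read on the same arrays. The mean of 5 measured of 6 listed GMP genes, relative to each gene's mean over all arrays, was 1.34 to 1.61 in Dot1l-deleted GMP and 1.46 to 1.98 in control GMP, against -2.83 to 0.32 in Dot1l-deleted LSK and -2.37 to -1.22 in control LSK. The mean of 7 of 8 stem and multipotent genes was -1.70 to -0.97 and -1.96 to -1.26 in those GMP groups, -1.44 to 2.24 in Dot1l-deleted LSK and 1.78 to 2.39 in control LSK. The mean of 8 of 9 late neutrophil genes, markers of cells outside both gates, was -1.34 to -0.39 in Dot1l-deleted GMP, -0.14 to 0.36 in control GMP, -2.24 to -0.26 in Dot1l-deleted LSK and -0.42 to 3.94 in control LSK. The mean of 7 of 8 B cell genes was -0.87 to 0.01 in Dot1l-deleted GMP, below every control GMP array at 0.10 to 0.74. The means of 3 of 4 T cell genes and of 6 of 7 erythroid genes were highest of all arrays on the Dot1l-deleted LSK array K1272, at 1.26 and 1.85. The T cell genes were dim, since Cd3e, Cd3g and Cd3d reached at most 4.67, 4.89 and 5.20 in that group. The median log2 intensity of array K1272 itself was 4.98, the highest of all arrays. The sort marker Kit was 7.26 to 8.17 in Dot1l-deleted GMP and 5.66 to 7.27 in control GMP. Intensities on these arrays are never 0, so that no marker was absent in this sense, and the part of these differences in the results below was not tested. Ly6a, which encodes Sca-1, had no probe set of its own. Xist was 11.56 to 13.32 on the 4 Dot1l-deleted GMP arrays. On control GMP arrays it was 6.24 on K1603, 6.16 on K1604 and 12.19 to 13.42 on the others. It was 4.17 to 13.62 in Dot1l-deleted LSK and 4.75 to 13.22 in control LSK. The level of Xist was thus not balanced between the GMP groups, and its part in the results was not tested. Dot1l itself averaged 6.37 ± 0.35 in Dot1l-deleted LSK and 6.48 ± 0.30 in control LSK (SD, n = 6 each), and 6.22 ± 0.42 in Dot1l-deleted GMP (n = 4) and 6.74 ± 0.16 in control GMP (n = 5). No source used here says whether this probe set reads the deleted exons, so that it does not check the genotype.

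The members spread more within groups than the median gene. Their median SD was 0.796 in Dot1l-deleted LSK, 0.443 in control LSK, 0.520 in Dot1l-deleted GMP and 0.763 in control GMP, against 0.652, 0.346, 0.469 and 0.513 over all genes, in that order of groups. Of the 34 members, 29 had a mean at or above 5.54, the mean of the median gene, while Phf1, Phf19, Pcgf3, Cbx8 and Scmh1 lay below it. No filter on dim genes was used for the tests.

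**Figure D1:**
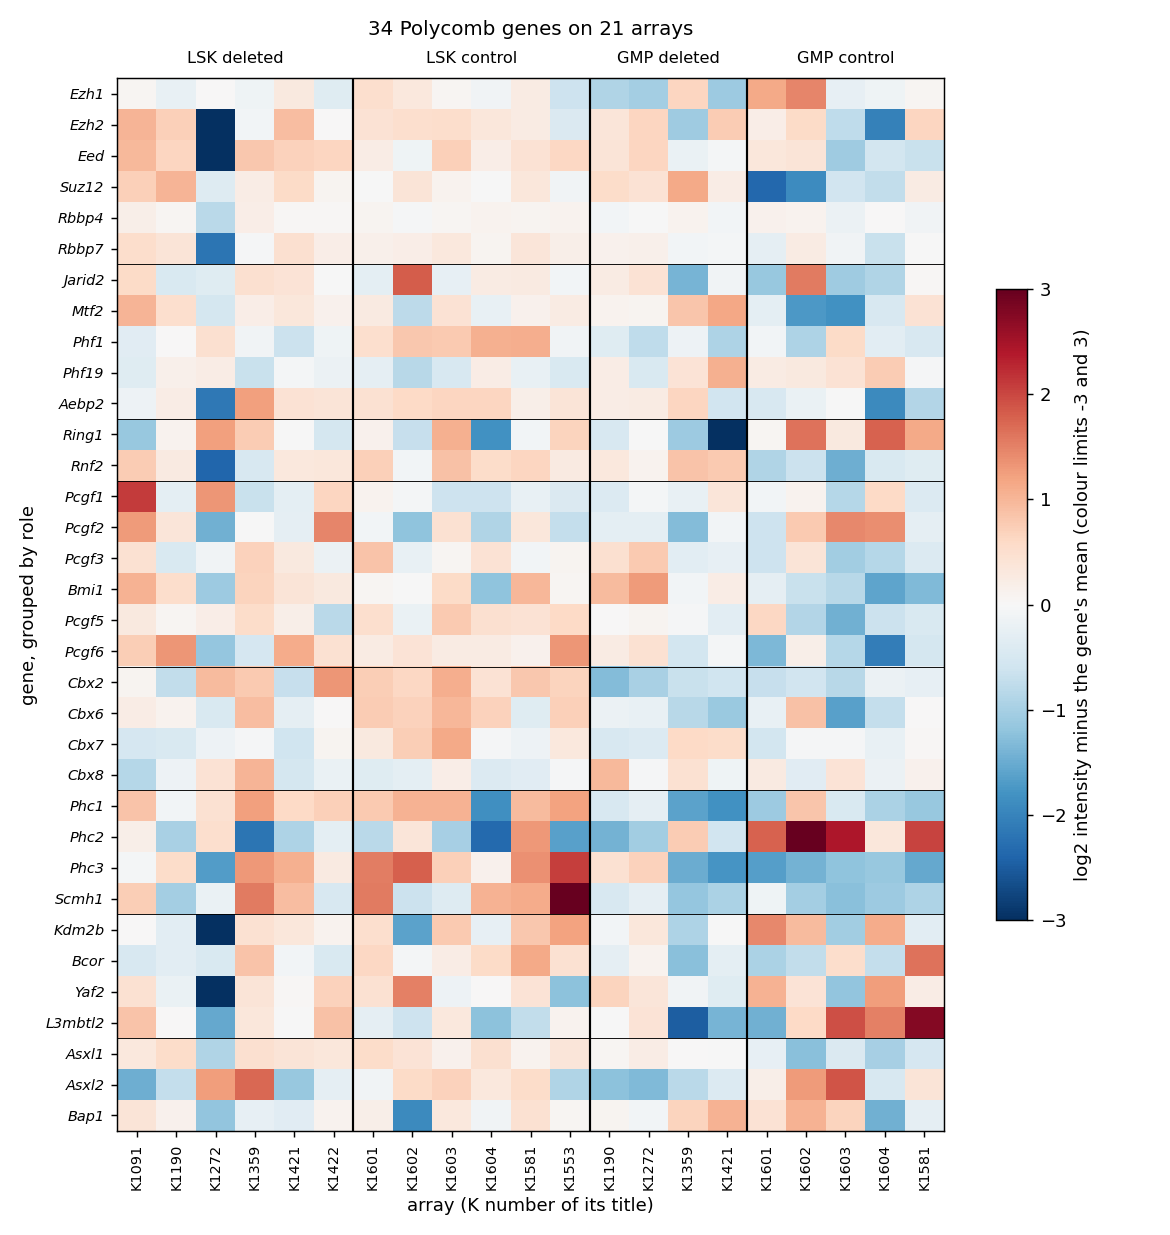
Heat map of the log2 intensity of 34 Polycomb genes, minus each gene's mean over 21 arrays, with genes as rows in blocks by role and arrays as columns in 4 groups. Red is above and blue below the gene's mean, and array K1272 of the Dot1l-deleted LSK group shows as a column of low values, with Ezh2 at 3.79, Eed at 4.42 and Yaf2 at 3.30 on the log2 scale.

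In control cells, 10 of the 34 members differed between GMP and LSK, 1 higher and 9 lower in GMP. The higher one was Phc2, and the lower ones were its relatives Phc3 and Scmh1, the PRC2 scaffold Suz12 and the PRC2 partner Phf1, the ligase Rnf2, the Pcgf proteins Pcgf5 and Pcgf6, the mark reader Cbx2 and the deubiquitinase partner Asxl1. Over all genes, 7.03% were called higher and 4.95% lower at the same threshold, an adjusted p under 0.05 in limma over 18194 genes. Each array reads the RNA of many cells, so that fewer cells with a transcript and less of it per cell cannot be told apart. The member median log2 fold change was -0.57, against 0.29 over all genes. Both moved when the upper quartile of each array was a covariate, to -0.18 and 0.01, and 3 members were then called, which were L3mbtl2 as higher and Cbx2 and Phf1 as lower. That upper quartile, a measure of how the array as a whole was spread, was 6.19 to 6.57 on control GMP arrays and 6.60 to 6.76 on control LSK arrays. Its part in the calls cannot be told apart from that of cell type by these arrays alone.

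The Phc proteins join PRC1 complexes to each other through a domain that forms chains, and Phc2 and Phc3 moved in opposite directions. Phc2 measured 9.64, 11.37, 10.30, 8.22 and 9.90 (log2 intensity) on the 5 control GMP arrays, and from 5.54 to 9.17 with a median of 6.98 on the 6 control LSK arrays. The log2 fold change was 2.70 ± 0.64 (SE), which is 6.48-fold, with an adjusted p of 0.0112, although the lowest GMP array lay below the highest LSK array. That LSK array, K1581, also had the highest mean of the late neutrophil genes of all arrays, at 3.94. The part of such cells in its Phc2 value was not tested. Phc3 measured 4.61, 4.85, 5.07, 5.13 and 4.74 on control GMP arrays, and from 6.41 to 8.33 with a median of 7.72 on control LSK arrays. All 5 GMP values lay below all 6 LSK values, and the log2 fold change was -2.65 ± 0.51 with an adjusted p of 0.00293. Scmh1, a relative of the Phc genes that is dim on these arrays, measured 4.77, 3.89, 3.64, 3.81 and 3.99 in control GMP and from 4.27 to 7.99 with a median of 5.98 in control LSK, with a log2 fold change of -1.84 ± 0.54 (adjusted p = 0.0336). Phc1 had -1.10 ± 0.49 and did not pass (adjusted p = 0.126). The other probe set of Phc2 had a log2 fold change of 1.05 ± 0.41, the same direction as the first, and that of Phc3 had 0.37 ± 0.23, the opposite one.

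Among the 6 core genes of PRC2, only Suz12, the scaffold that holds the enzyme, passed the test. It measured 7.63, 8.10, 9.41, 9.25 and 10.22 on control GMP arrays, and from 9.88 to 10.37 with a median of 10.04 on control LSK arrays. The GMP arrays spread widely, with K1581 among the LSK values and K1601 lowest, and the log2 fold change was -1.18 ± 0.36 (adjusted p = 0.0389). All of its 5 other probe sets had a log2 fold change below 0, from -2.72 to -0.30. Ezh2, the catalytic subunit, measured 7.54, 7.90, 6.56, 5.31 and 7.98 in control GMP and from 6.89 to 7.87 with a median of 7.72 in control LSK, and its log2 fold change of -0.54 ± 0.65 did not pass, with a 95% interval of -1.91 to 0.82. Ezh1, the other PRC2 enzyme, had 0.39 ± 0.34, and Eed, which binds the PRC2 mark, had -0.66 ± 0.76. The histone chaperones Rbbp4 and Rbbp7 had -0.08 and -0.37.

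Of the 5 accessory PRC2 genes, Phf1, a Polycomb-like protein that helps bring PRC2 to DNA, was lower. It measured 3.90, 3.06, 4.55, 3.68 and 3.50 in control GMP and from 3.89 to 5.09 with a median of 4.78 in control LSK, both dim, with a log2 fold change of -0.94 ± 0.27 (adjusted p = 0.0327). Its relatives Mtf2 and Phf19 had -0.79 ± 0.38 and 0.67 ± 0.25. Aebp2 had -1.18 ± 0.44 and Jarid2 had -0.59 ± 0.47, and both are subunits of the other form of PRC2. None of these 4 passed, with adjusted p-values from 0.0774 to 0.359.

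The ligase Rnf2 measured 8.74, 8.99, 8.16, 9.18 and 9.28 on control GMP arrays, and from 9.55 to 10.50 with a median of 10.23 on control LSK arrays. These groups did not overlap, and the log2 fold change was -1.26 ± 0.41 (adjusted p = 0.0495). The call depends on the probe set, since 3 of the 4 others had a log2 fold change above 0, up to 0.9997, and the mean of all 5 gave 0.27. Ring1, the other ligase, had 1.10 ± 0.56 (adjusted p = 0.169). Among the Pcgf genes, Pcgf6, a subunit of the variant complex that also holds L3mbtl2, measured 5.03, 6.56, 5.51, 4.30 and 5.83 in control GMP and from 6.50 to 7.69 with a median of 6.62 in control LSK, with -1.36 ± 0.43 (adjusted p = 0.0435). Pcgf5, of another variant complex, measured 11.29, 9.80, 9.24, 10.01 and 10.20 in control GMP and from 10.46 to 11.45 with a median of 11.16 in control LSK, with -0.99 ± 0.30 (adjusted p = 0.036). Bmi1 measured 6.72, 6.32, 6.15, 5.41 and 5.66 in control GMP and from 5.77 to 7.995 with a median of 7.05 in control LSK, and its -1.02 ± 0.40 did not pass (adjusted p = 0.0877). Pcgf1, Pcgf2 and Pcgf3 had 0.17, 0.90 and -0.69, and none passed.

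Cbx2, a reader of the PRC2 mark in canonical PRC1, measured 5.40, 5.50, 5.25, 5.90 and 5.85 on control GMP arrays, and from 6.52 to 7.18 with a median of 6.79 on control LSK arrays. The groups did not overlap, and the log2 fold change was -1.23 ± 0.32 (adjusted p = 0.018). It was called in 36 of the 38 alternative fits, as was Phc3. Asxl1 and Phc2 were called in 35 of the 38, Pcgf5 in 26, Suz12 in 25, Pcgf6 in 18 and Rnf2 in 11. Of 37 such fits, Phf1 was called in 28 and Scmh1 in 24. Fits that only left out deleted arrays could not change these fold changes. Cbx7, the reader best known from stem cells of the blood, had -0.55 ± 0.26, Cbx6 had -0.91 ± 0.36 and Cbx8 had 0.27 ± 0.29, and none passed. Asxl1, which activates the deubiquitinase Bap1, measured 9.62, 8.61, 9.43, 8.88 and 9.37 in control GMP and from 9.97 to 10.42 with a median of 10.26 in control LSK, with every GMP array below every LSK array. Its log2 fold change was -1.02 ± 0.24 (adjusted p = 0.0114), and its 2 other probe sets lay on the same side of 0. Bap1 itself had 0.26 ± 0.45 and Asxl2 had 0.47 ± 0.53. The variant PRC1 genes Kdm2b, Bcor, Yaf2 and L3mbtl2 had 0.19, -0.54, 0.18 and 1.48, and 0 of the 4 passed.

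Over the members, 5 were lower in control GMP with no overlap between the groups (Aebp2, Rnf2, Cbx2, Phc3 and Asxl1) and 0 were higher, against 3.43% lower and 11.3% higher over all genes. The count of 10 called members rested on single control arrays to some degree. It was 4 without control GMP K1604 or without control LSK K1601 or K1581, 5 without control GMP K1581 or without control LSK K1553 or K1603, and 6 without control GMP K1603 or control LSK K1604.

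**Figure D2:**
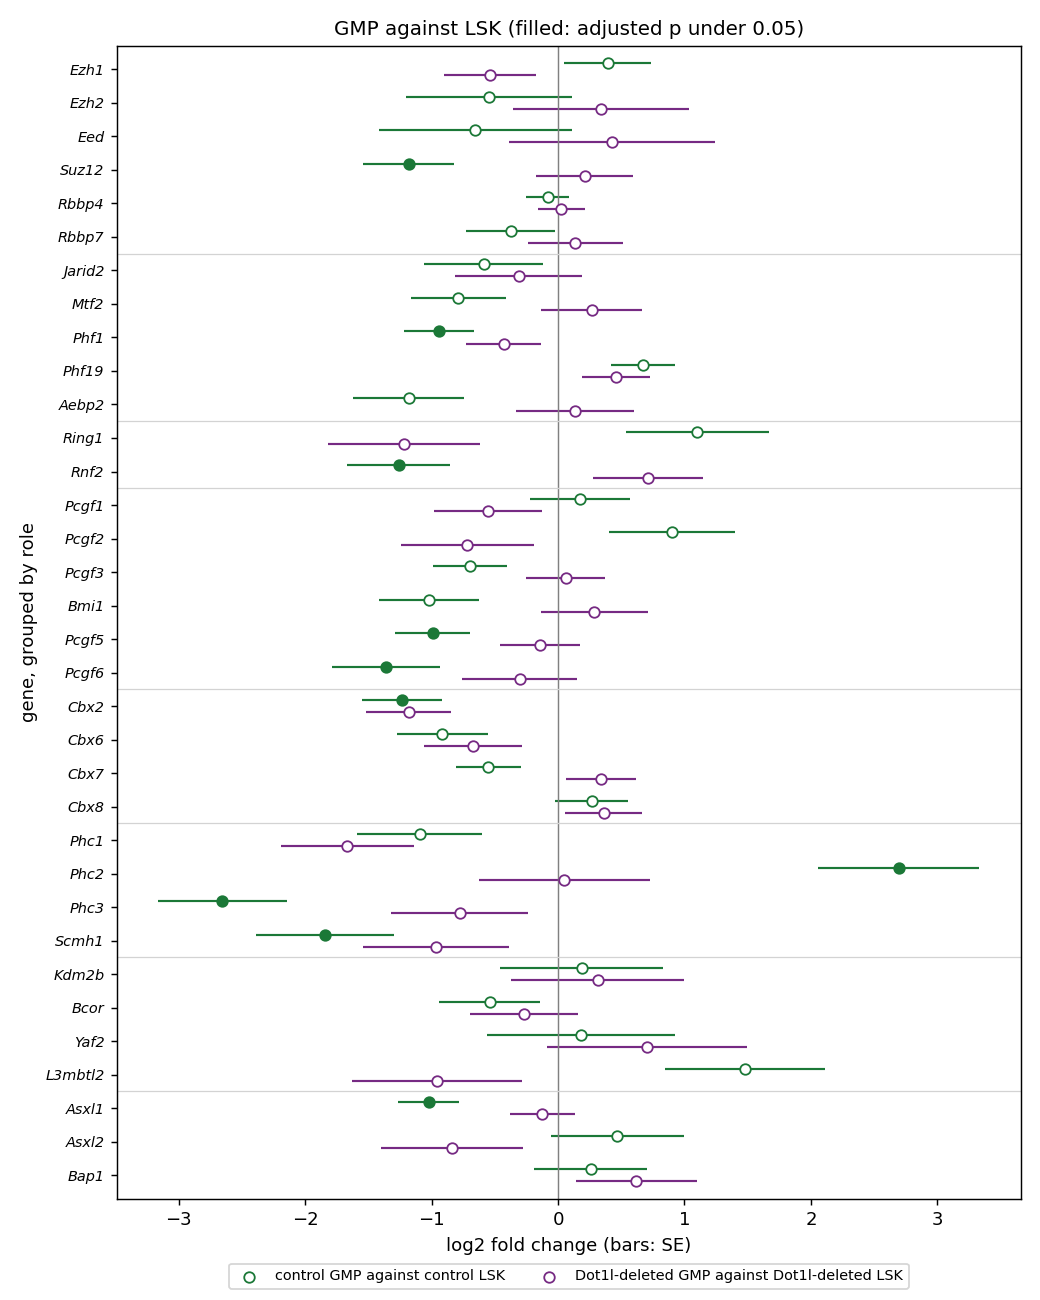
Log2 fold change with its SE for 34 Polycomb genes, in blocks by role, of control GMP against control LSK (green) and of Dot1l-deleted GMP against Dot1l-deleted LSK (purple), with filled points where the adjusted p was under 0.05. In controls 10 points are filled, from Phc3 at -2.65 to Phc2 at 2.70, and in deleted cells 0 are.

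In Dot1l-deleted GMP against control GMP, 0 of the 34 members passed at an adjusted p under 0.05 in limma, where 0.0824% of all genes were called higher and 0.0605% lower. At an unadjusted p under 0.05 there were 6 higher and 5 lower members, against 5.72% and 8.23% of all genes. The member closest to the threshold was Suz12, with an adjusted p of 0.108. The members' median log2 fold change was 0.13, with 19 above 0 and 15 below, against a median of -0.20 over all genes. Most members are brighter than the median gene, and with dim genes left out these medians were 0.096 and 0.0002. With the upper quartile as a covariate these medians were -0.12 and -0.07, so that the sign of the members' median depends on the scaling. This comparison shares the control GMP arrays with the comparison of control cells above, so that a gene measured low on them moves both in opposite directions.

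Suz12 measured 10.53, 10.42, 11.12 and 10.21 on the 4 Dot1l-deleted GMP arrays, and 7.63, 8.10, 9.41, 9.25 and 10.22 on the 5 control GMP arrays. The deleted arrays lay close together and the controls did not, with control K1581 just above the lowest deleted array. The log2 fold change was 1.65 ± 0.40, with a 95% interval of 0.81 to 2.48. The 5 other probe sets of Suz12 lay on the same side of 0, from 0.28 to 3.82. The log2 fold change was above 0 in each of the 37 alternative fits, and the adjusted p lay between 0.00311 and 0.355. Fits that only left out LSK arrays or changed the variance model could not move this fold change, so that their sign was fixed in advance. Among the other PRC2 core genes, Ezh1 measured 5.19, 5.08, 6.73 and 4.997 in Dot1l-deleted GMP and 7.22, 7.57, 5.84, 5.97 and 6.14 in control GMP, with a log2 fold change of -1.05 ± 0.38 (unadjusted p = 0.0119). Only deleted array K1359 lay inside the control range. Ezh2 measured 7.70, 7.97, 6.26 and 8.09 in Dot1l-deleted GMP and 7.54, 7.90, 6.56, 5.31 and 7.98 in control GMP, with 0.45 ± 0.73, and Eed, Rbbp4 and Rbbp7 had 0.51, -0.01 and 0.19.

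Mtf2, which binds CpG-rich DNA and recruits PRC2 there, measured 9.78, 9.77, 10.50 and 10.83 in Dot1l-deleted GMP and 9.39, 7.95, 7.86, 9.20 and 10.10 in control GMP. Its log2 fold change was 1.32 ± 0.42 (adjusted p = 0.205), and 4 of its 5 other probe sets lay on the same side of 0. Aebp2, Jarid2, Phf1 and Phf19 had 0.82, 0.10, -0.30 and -0.03, and none passed.

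Both PRC1 ligases separated the groups, in opposite directions. Ring1 measured 7.37, 7.83, 6.75 and 4.83 on Dot1l-deleted GMP arrays and 7.91, 9.47, 8.14, 9.62 and 8.99 on control GMP arrays, so that every deleted array was lower, with K1421 far below the others. Its log2 fold change was -2.13 ± 0.62 (adjusted p = 0.175). Rnf2 measured 9.95, 9.75, 10.49 and 10.42 in Dot1l-deleted GMP and 8.74, 8.99, 8.16, 9.18 and 9.28 in control GMP, so that every deleted array was higher, with 1.28 ± 0.45 (adjusted p = 0.245). The 4 other probe sets of Rnf2 all lay on the opposite side of 0, from -0.66 to -0.50. Bmi1 measured 7.95, 8.27, 6.92 and 7.20 in Dot1l-deleted GMP and 6.72, 6.32, 6.15, 5.41 and 5.66 in control GMP, again with no overlap, and had 1.53 ± 0.44 (adjusted p = 0.175). Its other probe set had -0.20 ± 0.75.

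Asxl1 was the other member whose deleted arrays were all higher. It measured 9.94, 10.10, 9.89 and 9.86 in Dot1l-deleted GMP and 9.62, 8.61, 9.43, 8.88 and 9.37 in control GMP, with 0.76 ± 0.27 (adjusted p = 0.245). In all, 3 members were higher without overlap (Rnf2, Bmi1 and Asxl1) and 1 was lower (Ring1), against 1.81% and 2.97% of all genes. Phc2 measured 6.45, 6.84, 8.63 and 7.31 in Dot1l-deleted GMP and 9.64, 11.37, 10.30, 8.22 and 9.90 in control GMP, with -2.58 ± 0.71 (adjusted p = 0.159), and deleted array K1359 lay above the lowest control. L3mbtl2, of the variant complex with Pcgf6, measured 7.24, 7.67, 4.79 and 5.85 in Dot1l-deleted GMP and 5.81, 7.86, 9.18, 8.78 and 10.0004 in control GMP, with -1.94 ± 0.70 (unadjusted p = 0.0118), and control K1601 lay among the deleted arrays. Asxl2 had -1.59 ± 0.58, with its 4 other probe sets on the opposite side of 0. Kdm2b had -0.60 ± 0.71, Cbx7 had 0.23 ± 0.29 and Bap1 had 0.34 ± 0.49. The remaining Pcgf genes had values from -1.04 (Pcgf2) to 0.95 (Pcgf6), with Pcgf1 at 0.05, Pcgf3 at 0.68 and Pcgf5 at 0.49. Cbx2, Cbx6 and Cbx8 had -0.39, -0.25 and 0.26, Phc1, Phc3 and Scmh1 had -0.47, 0.86 and 0.17, and Bcor and Yaf2 had -0.38 and -0.21.

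These values were also taken without doubted arrays. Leaving out K1190 and K1272 leaves the deleted GMP arrays K1359 and K1421. Hoxa9, from the list of stem and multipotent genes, was 8.52 and 7.12 on these arrays. It was 6.82 and 6.74 on K1190 and K1272 and 7.65 to 9.37 on control GMP arrays, so that K1359 lay inside the control range. Without K1190 and K1272 the log2 fold change was 1.74 for Suz12, 1.58 for Rnf2 and -3.04 for Ring1, and 1.01 for Bmi1. That of L3mbtl2 was then -3.01 and that of Phc1 -1.14. The sign turned for Phc3, Jarid2 and Scmh1, to -0.24, -0.45 and -0.17, and for Phf19 and Rbbp4, to 0.40 and 0.02. Without the deleted LSK array K1272, which enters the fit through the shared variance, Asxl1, Bmi1, Rnf2 and Suz12 were called higher, and without control GMP K1581 Suz12 alone was. Array weights, estimated in 2 ways, called 8 and 13 members, where they called 3778 and 7152 of all 18194 genes. The first way did not converge. It weighted the deleted GMP arrays K1190, K1272, K1359 and K1421 at 0.008, 4.10, 0.36 and 0.43, so that K1272 dominated the group mean. The counts over all genes also moved with single arrays left out, and are given below with the dependence on the processing.

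**Figure D3:**
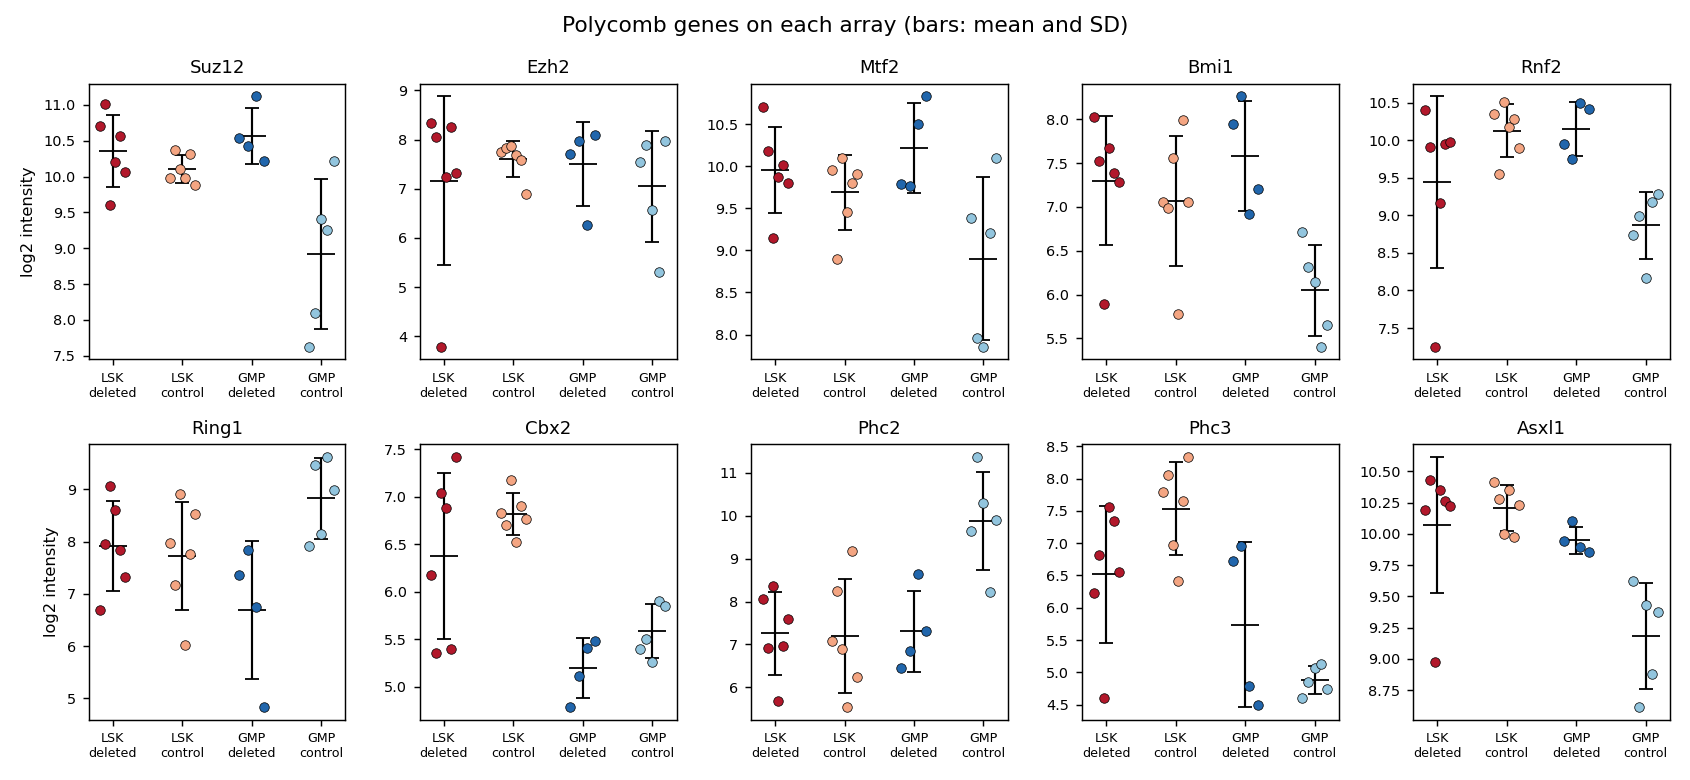
Log2 intensity of 10 Polycomb genes on each of 21 arrays (points), with the mean and SD of each group (black bars), for Dot1l-deleted and control LSK and for Dot1l-deleted and control GMP. Suz12 lies between 10.21 and 11.12 on the 4 Dot1l-deleted GMP arrays and between 7.63 and 10.22 on the 5 control GMP arrays, and Ring1, Rnf2, Bmi1 and Asxl1 separate these groups without overlap.

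Since the probe sets of 1 gene can differ, each of 34958 single-gene probe sets was also tested as a feature of its own, which was added after seeing the data. In Dot1l-deleted against control GMP, 2 of the members' 91 probe sets were called, both higher, against 0.083% higher and 0.0229% lower over all probe sets. One was a second probe set of Suz12 (1452364_at), which measured 8.43, 8.19, 8.72 and 8.81 on Dot1l-deleted GMP arrays and 5.65, 6.10, 7.61, 6.75 and 5.14 on control GMP arrays. No control reached the deleted arrays, and the log2 fold change was 2.29 ± 0.38 (adjusted p = 0.0156). The other was a probe set of Jarid2 (1422698_s_at), which measured 8.63, 8.59, 8.47 and 7.58 in Dot1l-deleted GMP and 5.48, 5.61, 4.39, 4.57 and 5.03 in control GMP. All deleted arrays were higher, with a log2 fold change of 3.30 ± 0.49 (adjusted p = 0.00895).

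Jarid2 encodes the PRC2 subunit that joins the enzyme to chromatin carrying the PRC1 mark, and 1 of its 3 probe sets was called. The one described above for the gene (1450710_at) had 0.10 ± 0.52, and the remaining one (1422697_s_at) had -0.37 ± 0.42. In LSK, probe set 1422698_s_at measured from 5.33 to 8.70 with a median of 7.66 in Dot1l-deleted arrays and from 7.84 to 8.79 with a median of 8.43 in controls, with -0.93 ± 0.42 (adjusted p = 0.857). The deletion effect in GMP minus that in LSK was 4.24 ± 0.64 (adjusted p = 0.0222), the 1 member probe set called in this contrast, where 0.0257% of all probe sets were higher and 0.00858% lower. Between control GMP and control LSK it had -3.33 ± 0.44 (adjusted p = 0.000183). In that comparison 1 member probe set was called higher and 14 lower, from 11 genes, against 5.40% and 4.92% of all probe sets. Jarid2 and Mtf2, which their described probe sets did not call, were among the 11, while Rnf2, which its described probe set called over genes, was not.

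Both calls in GMP kept an adjusted p under 0.05 with the upper quartile as a covariate, at 2.83 for Jarid2 and 2.41 for Suz12. They lost it without the deleted arrays K1190 and K1272, at 3.01 (adjusted p = 0.0966) and 2.52 (adjusted p = 0.0743), with 2 deleted arrays left. The difference of the deletion effects for this Jarid2 probe set was then 3.95 and was not called (adjusted p = 0.101). Probe sets ending in _s_at can match several transcripts, and no source used here says which part of Jarid2 each one reads.

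**Figure D4:**
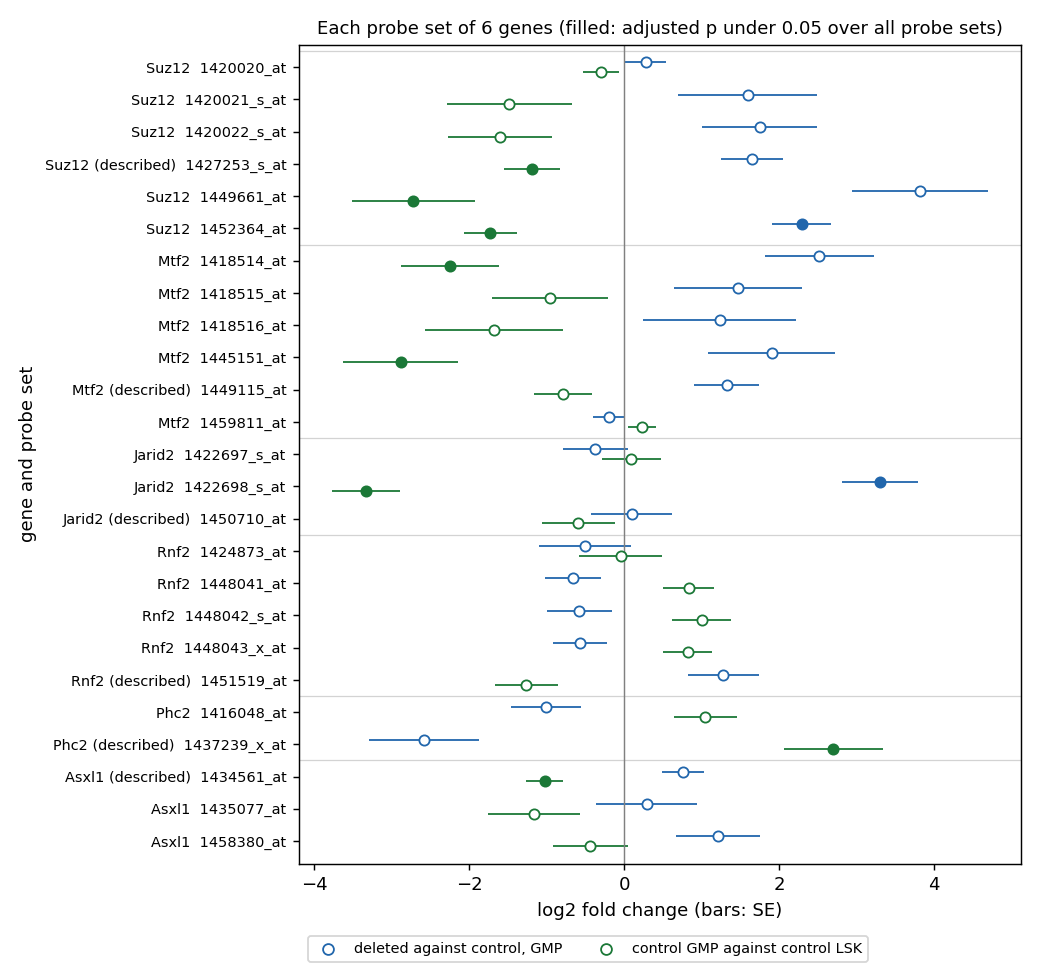
Log2 fold change with its SE for each probe set of Suz12, Mtf2, Jarid2, Rnf2, Phc2 and Asxl1, for Dot1l-deleted against control GMP (blue) and control GMP against control LSK (green), which share the control GMP arrays. Filled points passed over all probe sets, and the probe set used to describe the gene is marked as described. The 6 probe sets of Suz12 lie on 1 side in each comparison. For Rnf2, all 4 other probe sets lie opposite the described one in Dot1l-deleted against control GMP. In control GMP against control LSK, 3 of these 4 do.

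In Dot1l-deleted LSK against control LSK, 0 of the 34 members passed, and 0% of all genes were called higher and 0% lower, with a smallest adjusted p of 0.577 among the members. Of the members, 11 had a log2 fold change above 0 and 23 below it, with a median of -0.16 against 0.06 over all genes. Without array K1272 the members' median was -0.000631, so that the shift rested on that array. At an unadjusted p under 0.05 there were 0 higher and 3 lower members, against 3.13% and 2.48% of all genes. Phf1 measured from 3.35 to 4.47 with a median of 3.87 on Dot1l-deleted LSK arrays and from 3.89 to 5.09 with a median of 4.78 on control LSK arrays, with a log2 fold change of -0.81 ± 0.26 (unadjusted p = 0.00563). Cbx7 measured from 5.11 to 5.78 with a median of 5.39 in Dot1l-deleted LSK and from 5.55 to 6.84 with a median of 6.004 in control LSK, with -0.66 ± 0.25 (adjusted p = 0.679). Both groups overlapped for each of these genes. Array weights, in both ways, called these 2 genes as lower, where they called 663 and 446 of all 18194 genes. Phc3 was the third, measuring from 4.60 to 7.56 with a median of 6.68 in Dot1l-deleted LSK and from 6.41 to 8.33 with a median of 7.72 in control LSK, with -1.02 ± 0.48. Rnf2 came next, measuring from 7.25 to 10.40 with a median of 9.93 in Dot1l-deleted LSK and from 9.55 to 10.50 with a median of 10.23 in control LSK, with -0.69 ± 0.39 (unadjusted p = 0.0935). The lowest values of Phc3 and Rnf2 are those of K1272, and without it their log2 fold changes were -0.64 and -0.25.

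Among the members above 0 in LSK, Pcgf1 came closest, measuring from 5.12 to 7.88 with a median of 5.96 in Dot1l-deleted LSK and from 5.16 to 5.88 with a median of 5.46 in control LSK, with 0.78 ± 0.38 (unadjusted p = 0.0533). Pcgf2, a close relative of Bmi1, measured from 5.92 to 8.82 with a median of 7.54 in Dot1l-deleted LSK and from 6.15 to 7.81 with a median of 6.97 in control LSK, with 0.58 ± 0.47. L3mbtl2 measured from 5.71 to 8.13 with a median of 7.43 in Dot1l-deleted LSK and from 6.03 to 7.58 with a median of 6.81 in control LSK, with 0.49 ± 0.60, and Phf19 had 0.19 ± 0.24. The groups overlapped for each of these genes. In the PRC2 core, Ezh2 measured from 3.79 to 8.34 with a median of 7.69 in Dot1l-deleted LSK and from 6.89 to 7.87 with a median of 7.72 in control LSK, where the low end is array K1272, and had -0.43 ± 0.62. Suz12 measured from 9.61 to 11.01 with a median of 10.39 in Dot1l-deleted LSK and from 9.88 to 10.37 with a median of 10.04 in control LSK, with 0.25 ± 0.34 and a 95% interval of -0.46 to 0.97. Eed and Ezh1 had -0.57 ± 0.73 and -0.12 ± 0.33, and Rbbp4 and Rbbp7 had -0.12 and -0.32. Bmi1 had 0.23 ± 0.38, Ring1 had 0.19 ± 0.54, Kdm2b had -0.72 ± 0.61, Asxl1 had -0.14 ± 0.23 and Bap1 had -0.02 ± 0.42. Without array K1272 the sign turned for Ezh2, Eed, Rbbp4 and Rbbp7, to 0.24, 0.40, 0.03 and 0.10. It also turned for Asxl1, Bap1 and Ring1, to 0.08, 0.18 and -0.04, while Kdm2b and Bmi1 were then at -0.13 and 0.51. The other members had values between -0.73 (Yaf2) and 0.27 (Mtf2).

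**Figure D5:**
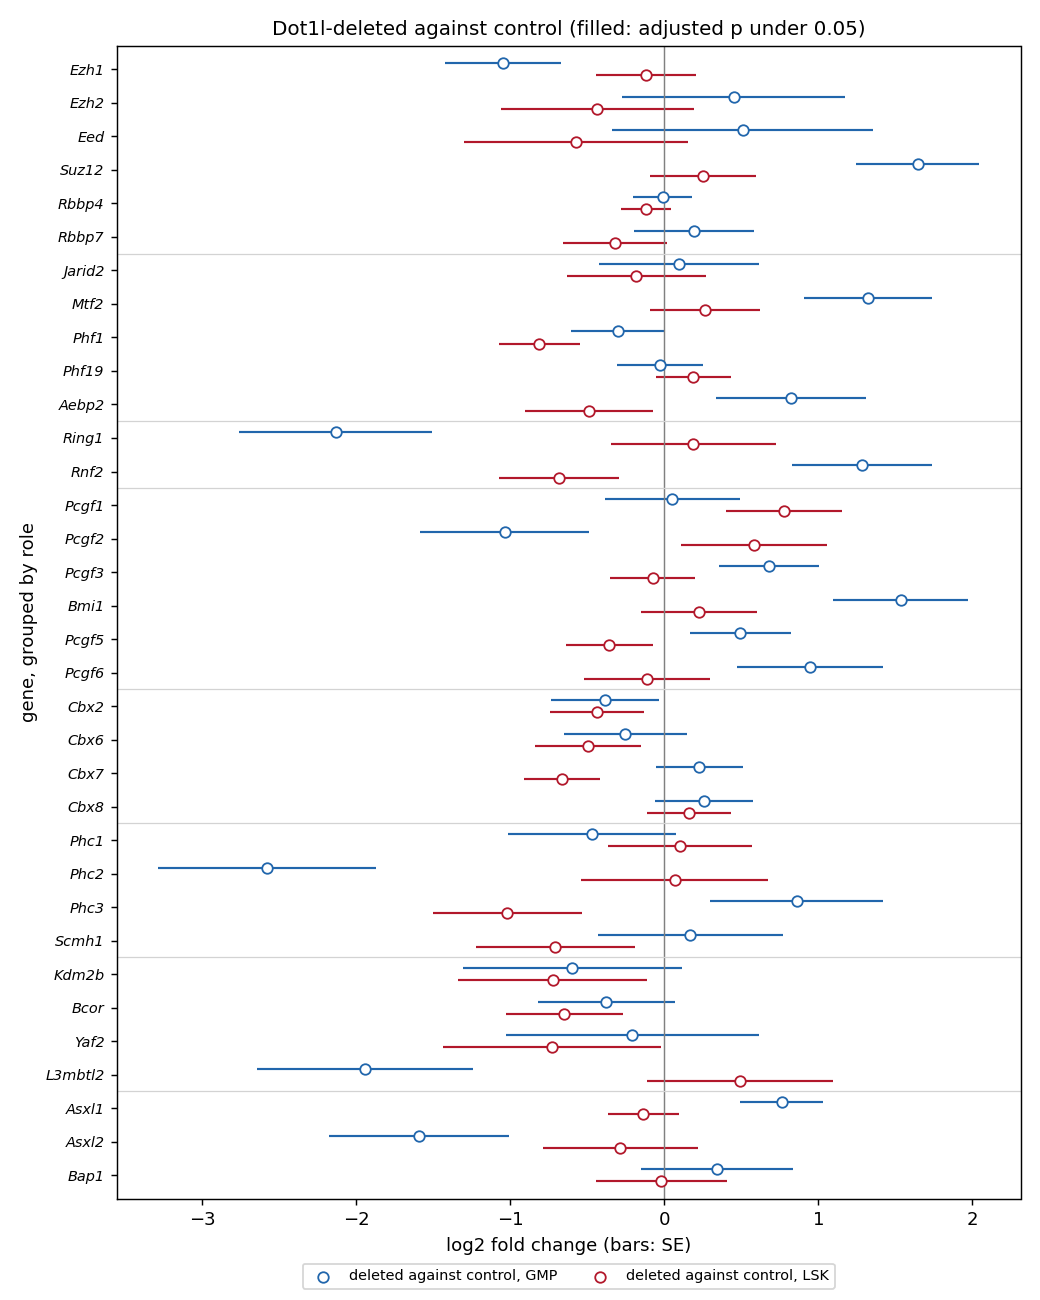
Log2 fold change with its SE for 34 Polycomb genes, in blocks by role, of Dot1l-deleted against control GMP (blue) and of Dot1l-deleted against control LSK (red), where filled points would mark an adjusted p under 0.05. There are 0 filled points, and values run from -2.58 (Phc2) to 1.65 (Suz12) in GMP and from -1.02 (Phc3) to 0.78 (Pcgf1) in LSK.

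Whether the deletion moved a member differently in the 2 cell types was tested as the effect in GMP minus that in LSK. This contrast called 0 members, against 0.0165% of all genes higher and 0.0165% lower, and the smallest adjusted p was 0.222 for Rnf2, at 1.97 ± 0.60. The 4 other probe sets of Rnf2 all lay on the opposite side of 0 in this contrast, and the value was 1.53 when K1272 was left out of the deleted LSK group. At an unadjusted p under 0.05 there were 6 higher and 4 lower members, against 5.30% and 8.29% of all genes. The higher ones included Suz12 at 1.39 ± 0.53, Asxl1 at 0.90 ± 0.35 and Phc3 at 1.88 ± 0.74, with Bmi1 at 1.31 and Cbx7 at 0.89. Without the deleted GMP arrays K1190 and K1272 the difference was 0.78 for Phc3 and 0.78 for Bmi1. The lower ones were Phc2 at -2.65 ± 0.93, Ring1 at -2.32 ± 0.82, L3mbtl2 at -2.43 ± 0.92 and Pcgf2 at -1.62 ± 0.72. Their adjusted p-values all lay between 0.222 and 0.348. For Ezh1, Ezh2, Eed, Kdm2b and Bap1 the difference was -0.93, 0.88, 1.08, 0.13 and 0.36. Without the deleted LSK array K1272 it was 0.21 for Ezh2, 0.11 for Eed, -0.47 for Kdm2b and 0.17 for Bap1.

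The same step between cell types was also measured in deleted cells, on arrays that the comparison of control cells did not use. Dot1l-deleted GMP against Dot1l-deleted LSK called 0 members, against 0.0495% of all genes higher and 0.0934% lower. At an unadjusted p under 0.05 there were 0 higher and 2 lower members, against 3.81% and 3.47% of all genes. These were Cbx2, at 4.78, 5.11, 5.41 and 5.48 in Dot1l-deleted GMP and from 5.36 to 7.42 with a median of 6.53 in Dot1l-deleted LSK, with -1.18 ± 0.34 (adjusted p = 0.198), and Phc1 with -1.67 ± 0.52 (adjusted p = 0.274). For Cbx2 the value in control cells was -1.23 ± 0.32. Phc3 had -0.78 ± 0.54 in deleted cells and -2.65 ± 0.51 in controls, and Scmh1 had -0.97 ± 0.58 and -1.84 ± 0.54. Phc3 measured 6.73, 6.95, 4.79 and 4.49 on the Dot1l-deleted GMP arrays K1190, K1272, K1359 and K1421, and without the first 2 its value in deleted cells was -1.88. Phc2 had 0.05 ± 0.68 in deleted cells and 2.70 ± 0.64 in controls, Suz12 had 0.21 ± 0.38 and -1.18 ± 0.36, and Asxl1 had -0.12 ± 0.26 and -1.02 ± 0.24. The differences between these pairs are the contrast of the deletion effects, in which 0 members passed. Ring1, Rnf2, Bmi1, Ezh1, Ezh2, Eed, Cbx7, Kdm2b and Bap1 had -1.22, 0.71, 0.29, -0.54, 0.34, 0.42, 0.34, 0.31 and 0.62 in deleted cells, and none passed. Without the deleted LSK array K1272, Rnf2, Ezh2, Eed and Kdm2b had 0.27, -0.34, -0.55 and -0.28.

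Several members that passed in 0 of these comparisons are given by level. Eed measured 9.91, 10.16, 9.32 and 9.46 in Dot1l-deleted GMP and 9.85, 9.90, 8.45, 8.95 and 8.85 in control GMP, and from 4.42 to 10.48 with a median of 10.18 in Dot1l-deleted LSK and from 9.38 to 10.23 with a median of 9.84 in control LSK. Kdm2b, which binds unmethylated CpG pairs and brings variant PRC1 to them, measured 7.84, 8.28, 7.01 and 7.91 in Dot1l-deleted GMP and 9.37, 8.87, 6.89, 9.04 and 7.60 in control GMP, and from 4.45 to 8.38 with a median of 7.98 in Dot1l-deleted LSK and from 6.31 to 9.14 with a median of 8.58 in control LSK. The low ends of both genes in Dot1l-deleted LSK are array K1272, and the deleted and control groups overlapped in each cell type. Bap1, the deubiquitinase, measured 9.22, 9.07, 9.82 and 10.20 in Dot1l-deleted GMP and 9.59, 10.20, 9.81, 7.71 and 8.87 in control GMP, and from 7.98 to 9.54 with a median of 9.07 in Dot1l-deleted LSK and from 7.23 to 9.60 with a median of 9.26 in control LSK. Cbx7 measured 5.21, 5.29, 6.30 and 6.24 in Dot1l-deleted GMP and 5.15, 5.65, 5.65, 5.47 and 5.73 in control GMP, again with overlap.

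Further genes that work with Polycomb proteins were read from the same fits. Of 31 measured genes associated with Polycomb complexes, 1 was higher and 3 were lower in control GMP than in control LSK, against 7.03% and 4.95% of all genes, with a median log2 fold change of -0.43 against 0.29 over all genes. Epop, a PRC2 partner, had 2.04 ± 0.66 (adjusted p = 0.0498). Mysm1, a deubiquitinase of histone H2A, had -3.14 ± 0.49 (adjusted p = 0.000547), the PRC2 partner Lcor had -2.73 ± 0.56 and the sugar transferase Ogt had -2.62 ± 0.70. In Dot1l-deleted against control GMP 0 of the 31 passed, and the smallest p belonged to Mysm1 at 2.33 ± 0.54 (adjusted p = 0.0936), then Lcor at 2.13 ± 0.62. In Dot1l-deleted against control LSK 0 passed, with L3mbtl3 at -1.14 ± 0.49 and Auts2 at -0.58 ± 0.27 closest.

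Of 13 enzymes that oppose Polycomb marks, 0 were higher and 3 were lower in control GMP than in control LSK, against 7.03% and 4.95% of all genes. These were the histone methyltransferase genes Kmt2c at -3.02 ± 0.63 (adjusted p = 0.00498) and Nsd1 at -2.31 ± 0.53 (adjusted p = 0.00991), and the chromatin remodeller Arid1b at -1.53 ± 0.37 (adjusted p = 0.014). After deletion 0 of the 13 passed in either cell type. Kdm6b, a demethylase that removes the PRC2 mark, had -1.32 ± 0.35 in GMP (adjusted p = 0.154) and -0.69 ± 0.30 in LSK (adjusted p = 0.848), and Nsd1 and Nsd2 came next at 1.97 ± 0.59 in GMP and 0.77 ± 0.39 in LSK.

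Of 29 measured genes that Polycomb complexes are known to repress in other cells, 3 were higher and 0 lower in control GMP than in control LSK, against 7.03% and 4.95% of all genes, with a median of 0.54 against 0.29 over all genes. These were Pax7 at 0.97 ± 0.30 (adjusted p = 0.0399), Gata4 at 0.90 ± 0.29 (adjusted p = 0.0491) and Foxa2 at 0.89 ± 0.25 (adjusted p = 0.0296), transcription factor genes of muscle, heart and endoderm. In Dot1l-deleted against control GMP the median was -0.48 against -0.20 over all genes and 0 passed, with Pax7 at -0.73 ± 0.33 and Pax5 at -0.84 ± 0.38 closest. With dim genes left out, the median over all genes was 0.0002 in this comparison. Pax5 was dim, averaging 4.37 in Dot1l-deleted GMP and 5.21 in control GMP, below 5.54, the mean of the median gene. The levels of the other genes named from this list are not given here. In Dot1l-deleted against control LSK 0 passed, and the cell cycle inhibitor gene Cdkn1c had 1.14 ± 0.36 (adjusted p = 0.561) and Id2 had 0.72 ± 0.54. Relative to each gene's mean, the list averaged 0.05 to 0.71 in control GMP and -0.39 to 0.01 in control LSK. This average was highest of all arrays on the deleted LSK array K1272, whose median log2 intensity of 4.98 was also the highest. On the deleted GMP arrays K1190 and K1272 it was -0.36 and -0.43, with upper quartiles of 6.71 and 6.77. On K1359 and K1421 it was 0.17 and 0.16, with 6.27 and 6.31. The part of array scale in these values was not tested.

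Proliferation genes were read beside the members because Ezh2 and its partners are known to follow cell division. Of 31 measured, 2 were higher and 1 lower in control GMP than in control LSK, against 7.03% and 4.95% of all genes. These were Ube2c at 1.02 ± 0.30, Cdc45 at 0.73 ± 0.18 and Kif11 at -3.75 ± 0.73. The mean of the list, relative to each gene's mean, was -0.11 to 0.37 in Dot1l-deleted GMP and -0.47 to 0.18 in control GMP, and -1.27 to 0.75 in Dot1l-deleted LSK and -0.36 to -0.02 in control LSK. On the deleted LSK arrays K1091, K1190, K1421 and K1422 it was 0.58, 0.60, 0.75 and 0.47, above every control LSK array. On the deleted LSK arrays K1272 and K1359 it was -1.27 and -0.14. After deletion 0 passed, with Kif11 at 2.83 ± 0.81 and Bub1 at 2.63 ± 0.77 closest in GMP, and Ube2c at 1.43 ± 0.28 (adjusted p = 0.0879) and Bub1b at 1.57 ± 0.42 closest in LSK. The part of cell division in the members' values was not tested.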

How the data were processed

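Biotin-labelled cRNA made from total RNA of the sorted cells was measured on Affymetrix arrays, per the labels' protocols. For each of 45101 probe sets and 21 arrays the authors deposited 1 intensity, made with RMA per the submitters' processing notes and linear in scale, as its values show. No source used here gives scan batches or a genome build, and scanner files were not used, so that background correction and probe summary are those of the authors. For arrays, the number of arrays limits the precision.

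Intensities were put on the log2 scale as they were, without a pseudocount or another normalization. The platform annotation names 1 gene for 34958 probe sets, several for 932 and none for 9211. The first kind gave 18194 genes, for each of which the brightest probe set was kept. Entrez identifiers of 34754 matched a reference table of GRCm38.p6, which changed 0 symbols. Promoters are RefSeq sequences of that assembly.

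Groups came from titles and genotype labels. A single limma model (version 3.58.1, R 4.3.3) held 4 group means over the 21 arrays. Its moderated p-values were adjusted by the Benjamini-Hochberg method across all 18194 genes, and 0.05 was the threshold. Figures were drawn with matplotlib 3.10.9. The fit was tested on simulated data.

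The members, the lists and the motifs were chosen with earlier results of these data known. The rule for named genes takes up to 12 called members with the smallest p in each comparison and always Ezh1, Ezh2, Eed, Suz12, Bmi1, Ring1, Rnf2, Cbx7, Kdm2b, Asxl1 and Bap1. For the deletion it adds the 4 members with the smallest p in each direction, and from each further list at most 5 called genes or else the 2 with the smallest p. Probe sets of Jarid2, Mtf2 and other members, and genes of the difference and of the deleted cells beyond this rule, were named after their values were seen.

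The titles give K numbers, 9 of which occur in both cell types, and no label says what they mark. They were not taken as a pairing. Alternatives were other scalings, a pseudocount of 16, a filter on dim genes, other probe set choices, other variance models and weights, the groups alone, K number blocks and arrays left out. The planned array weights stopped before convergence, for which reason weights estimated gene by gene were added, and fits without pairs of doubted arrays and over every probe set were added after seeing the data.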

Additional observations from a re-analysis of the deposited data

Results flagged for a closer look

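Dixon's test compares the gap between an extreme array and its nearest neighbour with the range of its group, and was applied to each member in each of the 4 groups. Of 136 tests 21 exceeded the 95% critical value, where chance gives about 1 in 20. Of these, 9 were low values on array K1272 of the Dot1l-deleted LSK group. They were Ezh2 at 3.79 (log2 intensity, nearest other array 7.24), Eed at 4.42 (10.15), Rbbp4 at 12.32 (13.17), Rbbp7 at 9.44 (11.60), Bmi1 at 5.89 (7.29), Kdm2b at 4.45 (7.60), Yaf2 at 3.30 (7.81), L3mbtl2 at 5.71 (7.25) and Asxl1 at 8.98 (10.19).

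In the same group Pcgf5 was low on K1422 at 9.87 and Bcor was high on K1359 at 9.37. Among Dot1l-deleted GMP arrays, K1359 was high for Ezh1 at 6.73, against 5.19 on the nearest, and low for Pcgf2 at 6.07. Control LSK arrays held the other 8. K1602 was low for Rbbp4 at 13.09, for Pcgf5 at 10.46 and for Bap1 at 7.23, and high for Jarid2 at 9.40. K1553 was low for Ezh2 at 6.89 and high for Pcgf6 at 7.69. K1581 was low for Cbx6 at 7.22, and K1604 was low for Phc1 at 4.77, against 7.41 on the nearest array.

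In limma's test of the difference over all probe sets, which was added after seeing the data, 1 of the 3 Jarid2 probe sets was called. The deletion effect of this probe set, 1422698_s_at, in GMP minus that in LSK was 4.24 on the log2 scale. Without the deleted GMP arrays K1190 and K1272 it was 3.95 and did not pass (adjusted p = 0.101).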

How the results depend on the processing

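A count of called genes is given as changed where it moved by over 1.5 times, and a sign only where a fit called the gene. Among members, the count in Dot1l-deleted against control LSK was 0, and 2 with either kind of array weights. In Dot1l-deleted against control GMP it was 0, but 8 with array weights, 13 with gene-by-gene weights, 2 with every probe set tested, 3 without the deleted LSK arrays K1272 and K1359, 1 without probe sets whose names mark several matches, 1 without both K1272 arrays, and 0 to 4 with 1 array left out. The difference of effects had 0, but 6 and 11 with the 2 weights and 1 with every probe set tested. Deleted GMP against deleted LSK had 0, but 3 with gene-by-gene weights. Control GMP against control LSK had 10, but 3 with the upper quartile, 4 with the K number as a random replicate block, 0 as a fixed replicate block, and 4 to 13 with 1 array left out. Rnf2, called there at -1.26, had 0.27 as the mean of its probe sets. With 1 array left out the LSK, difference and deleted-cell counts of members were 0 to 0.

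Over all genes, Dot1l-deleted against control LSK called 0, but 3 with the upper quartile, 1 with a pseudocount, 663 and 446 with the weights, 36 without K1272 and K1359 and 0 to 33 with 1 array left out. In GMP it was 26 (15 higher, 11 lower), but 13 centred, 8 by mean probe sets, 14 without the marked probe sets, 3778 and 7152 with weights, 16 with the random replicate block, 116 without both K1272, 9 with the close pair averaged, 338 without the deleted LSK pair and 9 to 390. The upper quartile gave 11 higher and 25 lower. The difference called 6 (3 and 3), but 3 by mean probe sets, 2416 and 4236, 2 with the random block, 1 averaged, 80 without the LSK pair and 1 to 21, and 2 higher and 5 lower with the upper quartile. Control cells gave 2180, but 593 with the upper quartile, 1417 without dim genes, 7054 and 6351, 4439 alone, 1337 random block, 454 fixed block, 5744 without both K1272, 5407 without the LSK pair and 1111 to 5531. Deleted cells gave 26 (9 higher, 17 lower), but 17 centred, 102 (69 and 33) with the upper quartile, 14 with a pseudocount, 520 and 1362, 1 alone, 10 random block, 0 fixed block, 42 without both K1272, 5 averaged, 47 without the GMP pair, 51 without the LSK pair and 4 to 110. Centring gave 2 higher and 4 lower for the difference, and quantile normalization 9 and 9 for deleted cells. The causes were not tested. Within the 9 K numbers found in both cell types, deviations from the group means correlated at -0.397 to 0.272. The level of Xist differed between the cell types for K1581, K1190 and K1272 and was alike for the other 6. The fixed replicate block could not be fitted within a cell type, where each number occurs once. The difference could not be fitted from 2 groups alone. The planned weights did not converge. Small groups, wide spread among control GMP arrays and probe sets that differ limit every value for a single member.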

Other observations

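The level of all members at once differed between arrays of 1 group. The median member, relative to its mean over all arrays, was at 0.03, 0.08, -0.17 and -0.13 on the Dot1l-deleted GMP arrays K1190, K1272, K1359 and K1421, against -0.24, 0.22, -0.52, -0.52 and -0.18 on the control GMP arrays K1601, K1602, K1603, K1604 and K1581. It was 0.06 to 0.41 on 5 of the 6 Dot1l-deleted LSK arrays and -0.45 on K1272, against 0.10 to 0.38 on control LSK arrays. Control GMP K1602 thus lay among the LSK arrays by this measure and had the highest upper quartile of its group, at 6.57. These are descriptions of arrays, with no test.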
